A study of Mus musculus with 17 samples.

Results

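The genes described here are the ribosomal RNA cluster of mouse mitochondrial DNA (mtDNA), taken as every gene of the count table that lies on the plus strand of mtDNA ahead of *mt-Nd1*. This rule took 5 genes out of 56748 in the table and out of 37 encoded by mtDNA: the tRNA gene *mt-Tf*, the rRNA gene *mt-Rnr1*, the tRNA gene *mt-Tv*, the rRNA gene *mt-Rnr2* and the tRNA gene *mt-Tl1*. RNA-seq of 17 samples of heart tissue, each from another mouse of 12 to 16 months of age, gave their levels. The control group (Ctrl) had 8 hearts and the *Polg* hMut group (hMut) had 9. The hMut mice carry the inducible mutator allele of *Polg* on both chromosomes together with 1 copy of Ckmm-cre, a Cre recombinase driven by the muscle creatine kinase promoter, so that striated muscle cells, and not the other cells of the heart, replace wild-type POLG with a proofreading-deficient mtDNA polymerase. The exact genotype of each control, the age and sex of each mouse and the part of the heart sampled are not given in the labels. A heart library mixes all cell types of the tissue sampled. The libraries were enriched for polyadenylated RNA with poly-T beads. What was asked is whether the transcripts of this cluster differ between hearts with and without the mutator polymerase.

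Mitochondrial transcription makes long RNAs that span many genes, and the tRNAs that stand between rRNAs and mRNAs are cut out of them by RNase P at their 5′ ends and by ELAC2 at their 3′ ends, which frees the neighbours. *mt-Rnr1* encodes the rRNA of the small and *mt-Rnr2* that of the large subunit of the mitochondrial ribosome, which translates the mtDNA-encoded subunits of the respiratory chain. *mt-Tf* encodes the tRNA for phenylalanine, *mt-Tv* the tRNA for valine, which also serves as a structural RNA of the large ribosomal subunit in several mammals, and *mt-Tl1* the tRNA that reads the UUR codons of leucine. The MTERF1 protein binds DNA within *mt-Tl1*, and the human counterpart of this gene is a frequent site of mutations in mitochondrial disease. Mature mitochondrial rRNAs end in at most a short run of added A and mature tRNAs carry no poly(A) tail, so poly-T beads hold them less well than mRNAs. The levels below are therefore levels in a poly(A)-enriched library and cannot be told apart from a difference in tail length.

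In the GRCm39 sequence of mtDNA (16299 bases) the cluster runs from position 1 to position 2750. *mt-Tf* occupies positions 1 to 68, *mt-Rnr1* 70 to 1024 (955 bases), *mt-Tv* 1025 to 1093, *mt-Rnr2* 1094 to 2675 (1582 bases) and *mt-Tl1* 2676 to 2750. These 5 genes have no introns, and *mt-Nd1* begins at the next base. A single base separates *mt-Tf* from *mt-Rnr1*, and 0 bases separate the members of each later pair. The 3 tRNA genes are shown on the plus strand, 5′ to 3′ and as DNA, because their ends are where the neighbouring RNAs begin and end. Capitals mark the anticodon, which a search for a 7-base loop closed by an anticodon stem placed at GAA in *mt-Tf*, TAC in *mt-Tv* and TAA in *mt-Tl1*.
mt-Tf: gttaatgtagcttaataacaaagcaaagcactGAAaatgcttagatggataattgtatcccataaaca
mt-Tv: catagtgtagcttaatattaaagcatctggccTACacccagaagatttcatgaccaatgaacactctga
mt-Tl1: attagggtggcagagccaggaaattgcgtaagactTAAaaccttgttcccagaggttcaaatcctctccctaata

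The last 60 bases of each rRNA gene are given because A residues are added there, at positions 965 to 1024 for *mt-Rnr1* and 2616 to 2675 for *mt-Rnr2*. Neither gene ends in A, and both end in T.
mt-Rnr1: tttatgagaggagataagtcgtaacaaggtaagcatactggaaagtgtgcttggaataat
mt-Rnr2: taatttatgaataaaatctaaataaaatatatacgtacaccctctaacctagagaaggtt

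Runs of A inside a transcript can also pair with poly-T, and the stretch around the longest such run of each rRNA gene is shown for that reason, with the run in capitals. The longest run has 5 bases in *mt-Rnr1*, where 2 runs reach that length (positions 678 to 737 are printed, around 1 of them), and 7 bases in *mt-Rnr2* (positions 1461 to 1520), which holds 4 runs of 6 or more where *mt-Rnr1* holds 0.
mt-Rnr1: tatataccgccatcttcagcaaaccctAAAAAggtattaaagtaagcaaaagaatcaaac
mt-Rnr2: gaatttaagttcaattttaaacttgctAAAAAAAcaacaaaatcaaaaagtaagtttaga

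The base composition of both rRNA genes was alike, with 37.8% A and 35.8% G or C in *mt-Rnr1* and 38.2% A and 35.4% G or C in *mt-Rnr2*. A search of the nuclear chromosomes for copies with at least 95% identity over at least 50 bases found none for *mt-Tf*, *mt-Rnr1*, *mt-Tv* or *mt-Tl1*. *mt-Rnr2* had 1 such copy, on chromosome 10 from 95913387 to 95913759, with 97.6% identity over 373 bases and covering 23.6% of the gene. That stretch lies within the span of the pseudogene *Gm49817*, which had between 0 and 1 counts in every heart. Whether an exon of *Gm49817* covers it was not tested. By contrast, *mt-Co2*, *mt-Atp8*, *mt-Atp6*, *mt-Co3* and *mt-Nd4l* each had a copy of their whole length at 100% identity on chromosome 1, so reads of these mRNAs could be placed at 2 sites and reads of the cluster mostly could not. Among the 12 plus-strand mRNAs, *mt-Nd1* and *mt-Cytb* had no copy of this kind.

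The Ctrl libraries held 34425783 to 46486964 counts and the hMut libraries 32915159 to 40175122, of which genes of mtDNA took 23.5% to 30.9% and 15.9% to 23.0%. *Polg*, the targeted gene, was at 34.7 ± 7.31 CPM in Ctrl (SD, n = 8) and 57.9 ± 6.08 in hMut (SD, n = 9), where CPM is the count scaled to a common library size by the TMM method of edgeR. Both the floxed wild-type cassette and the recombined allele yield *Polg* exons, so this count does not check which form was expressed. Of 7 cardiomyocyte markers, all 7 were detected and 0 passed the test between the groups (median log2 fold change -0.26), and their summed level was 37647 to 46015 CPM in Ctrl and 28551 to 44658 CPM in hMut. Among the markers of 8 other cell types, 2 passed, where 4.62% of all genes tested were called in either direction. *Kdr* was 1 of 4 endothelial markers (log2 fold change 0.39, edgeR adjusted p = 0.0407), with *Pecam1* at 0.14, *Cdh5* at 0.15 and *Tek* at -0.05. *Acta1* was 1 of 3 skeletal muscle markers tested (1.31, edgeR adjusted p = 0.0385), with *Ckm* at -0.23 and *Mb* at -0.03. The stressed heart also expresses *Acta1*. No change of a cell type is read from these 2 genes, and their part in the cluster's results was not tested. The myeloid markers summed to 173 to 268 CPM in Ctrl and 220 to 944 CPM in hMut, with 0 of 5 past the test. hMut 6 (944 CPM) and hMut 9 (479 CPM) stood above all other hearts in this sum, and the results below were also computed without this pair.

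Per kilobase of gene length, the Ctrl hearts held the cluster's transcripts in the order *mt-Rnr2*, *mt-Rnr1*, *mt-Tl1*, *mt-Tv* and *mt-Tf*. *mt-Rnr2* was at 3782 ± 876 CPM per kilobase (SD, n = 8). *mt-Rnr1* was at 1537 ± 474 CPM per kilobase, so the large-subunit rRNA exceeded the small-subunit rRNA by 2.46 times. *mt-Tl1* followed with 888 ± 178 CPM per kilobase and *mt-Tv* with only 1.03 ± 0.968. The hMut means had this order too, with 2555 ± 382 CPM per kilobase for *mt-Rnr2*, 1191 ± 320 for *mt-Rnr1*, 691 ± 107 for *mt-Tl1* and 3.66 ± 2.46 for *mt-Tv* (SD, n = 9). The 2 rRNAs did not overlap over the Ctrl hearts, and neither did *mt-Rnr1* and *mt-Tl1*, though their nearest values were 1151 and 1146 CPM per kilobase. In hMut 6 the order of that last pair turned, with *mt-Rnr1* at 714 and *mt-Tl1* at 763 CPM per kilobase. Both rRNAs were below the first mRNA of the strand: *mt-Nd1*, a subunit of complex I, was at 26971 ± 3393 CPM per kilobase in Ctrl, 7.13 times the level of *mt-Rnr2*. Sequenced fragments can be longer than a tRNA gene, so a level per kilobase compares tRNA genes with longer genes only roughly.

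*mt-Rnr2*, the large-subunit rRNA, was lower in hMut hearts. It ranged in Ctrl from 4325 CPM (Ctrl 6) through a median of 5693 to 8486 CPM (Ctrl 3). In hMut it ranged from 3437 CPM (hMut 3) through a median of 3879 to 5461 CPM (hMut 2). All 9 hMut hearts were below the Ctrl median and 8 of them below every Ctrl heart, and the groups overlapped only through hMut 2. The means were 5983 ± 1386 CPM in Ctrl (SD, n = 8) and 4042 ± 605 CPM in hMut (SD, n = 9), a mean 32.5% lower. The log2 fold change was -0.57 (standard error 0.12), and the adjusted p of the quasi-likelihood test in edgeR, corrected over every gene tested by the Benjamini-Hochberg procedure, was 0.0148 (called under 0.05). It stayed below that threshold whichever single library was dropped. Without hMut 6 and hMut 9 the value was -0.56 (edgeR adjusted p = 0.0260). In bulk tissue, fewer cardiomyocytes and less RNA per cardiomyocyte cannot be told apart.

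*mt-Rnr1*, the small-subunit rRNA, had a lower mean in hMut but did not pass the test. Its Ctrl values ran from 1099 CPM (Ctrl 5) through a median of 1288 to 2390 CPM (Ctrl 3). The hMut values ran from 682 CPM (hMut 6) through a median of 1095 to 1750 CPM (hMut 2). Here the groups overlapped widely: 7 of 9 hMut hearts were below the Ctrl median and 5 of 9 below every Ctrl heart. With means of 1468 ± 453 CPM in Ctrl (SD, n = 8) and 1137 ± 305 CPM in hMut (SD, n = 9), the log2 fold change was -0.37 (standard error 0.18, edgeR adjusted p = 0.196). The spread was larger for this rRNA, with an SD of 30.9% of the mean in Ctrl and 26.8% in hMut against 23.2% and 15.0% for *mt-Rnr2*.

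*mt-Tl1*, the leucine tRNA gene that follows *mt-Rnr2*, was the only tRNA gene of the cluster with more than 20 counts in any heart. Its Ctrl values ran from 48.4 CPM (Ctrl 6) through a median of 63.1 to 85.9 CPM (Ctrl 3), and its hMut values from 36.9 CPM (hMut 3) through a median of 53.1 to 64.9 CPM (hMut 2). The groups overlapped, with 8 of 9 hMut hearts below the Ctrl median and 3 of 9 below every Ctrl heart. At 66.6 ± 13.4 CPM in Ctrl (SD, n = 8) and 51.8 ± 8.04 CPM in hMut (SD, n = 9), the log2 fold change of -0.36 (standard error 0.12) did not pass in edgeR (adjusted p = 0.0749). It passed the test of DESeq2 (-0.36, adjusted p = 0.0346), and that of edgeR once hMut 2 was left out (-0.41, adjusted p = 0.0318).

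*mt-Tv*, the valine tRNA gene between the rRNA genes, was nearly undetected, yet it was the member with more counts in hMut. The 8 Ctrl hearts held 20 counts in all, from 0 (Ctrl 8) through a median of 1.5 to 6 in a heart. In the 9 hMut hearts there were 87 counts in all, from 3 (hMut 8) through a median of 8 to 19 (hMut 5). Every hMut heart was above the Ctrl median of CPM, and 5 of 9 exceeded all Ctrl hearts. The means were 0.0708 ± 0.0668 CPM in Ctrl (SD, n = 8) and 0.252 ± 0.170 CPM in hMut (SD, n = 9), 3.56 times as high. The count of 0 in Ctrl 8 allows up to 3 counts, or 0.0697 CPM, and hMut 8 held 3 counts (0.0823 CPM). The Ctrl mean is thus near this floor, and the size of the fold rests on few reads. The gene did not pass the filter on low counts; a fit without that filter put the change at 1.80 on the log2 scale (standard error 0.54, edgeR adjusted p = 0.114), which misses the threshold. A 2-sided exact permutation test of the mean CPM over the 24310 assignments of the hearts, chosen after the values were seen, gave p = 0.0101 with no adjustment. The same hMut hearts held 398111 counts of *mt-Rnr1*, which ends at the base before *mt-Tv*, and how a read that spans both genes was counted is not given in the sources used here.

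*mt-Tf*, the phenylalanine tRNA gene at the head of the cluster, had 1 count in hMut 3 and 0 counts in the other 16 hearts. A count of 0 allows a level of up to 3 counts, which is between 0.0676 and 0.0951 CPM depending on the heart. No fold change is given, since both groups were at or under this floor.

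Thus 3 of the 5 members passed the filter on low counts, of which 1 was lower, 0 were higher and 0 had groups without overlap. Over all 16195 genes tested, 4.62% were called, 1.14% as lower and 3.48% as higher in hMut, and 0.605% had groups that did not overlap. The median log2 fold change was -0.37 over the 3 members tested and 0.0023 over all genes tested. Scaling the libraries on nuclear genes alone left *mt-Rnr2* at -0.57 (edgeR adjusted p = 0.0141), *mt-Rnr1* at -0.37 and *mt-Tl1* at -0.36. The plot of CPM by heart shows that the same Ctrl heart (Ctrl 3) and the same hMut heart (hMut 2) were highest for these 3 genes.

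**Figure D1:**
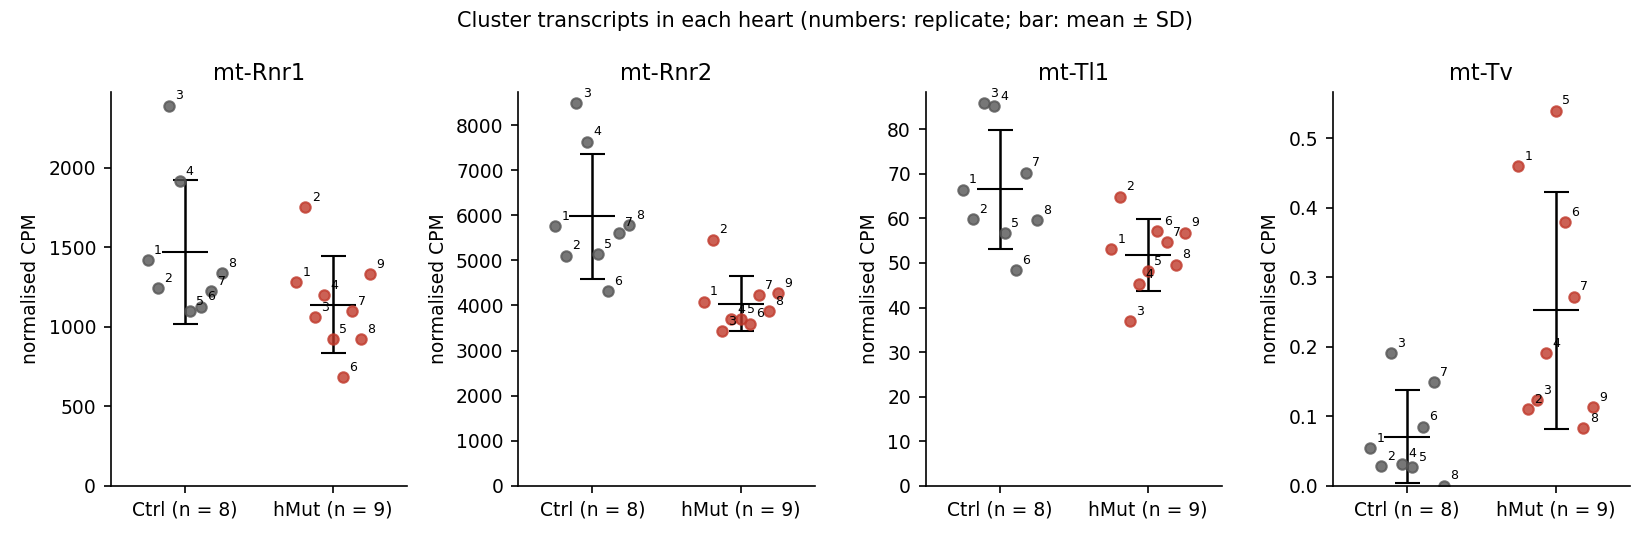
Normalised CPM of 4 cluster genes in each heart (vertical axes, linear from 0), with a point per heart numbered by replicate, grey for Ctrl (n = 8) and red for hMut (n = 9); black bars give the mean ± SD. mt-Rnr2 lies lower in hMut except in hMut 2, mt-Rnr1 and mt-Tl1 overlap between the groups, and mt-Tv stays below 1 CPM in every heart.

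The rRNAs and the mRNAs that follow them on the plus strand were set side by side. Of the 12 plus-strand mRNAs, 8 were lower and 0 higher in hMut, against 1.14% lower and 3.48% higher over all genes tested. Their log2 fold changes ran from -1.30 (*mt-Nd4l*) to -0.13 (*mt-Atp8*), with a median of -0.68. *mt-Nd1*, the nearest one, had a log2 fold change of -0.35 (edgeR adjusted p = 0.138), close in size to those of *mt-Rnr1* and *mt-Tl1*. The members' values of -0.57, -0.37 and -0.36 are all nearer to 0 than the median of the mRNAs. *mt-Rnr2* at -0.57 was further from 0 than *mt-Nd1*, which has no near-identical nuclear copy. The other mRNA without such a copy, *mt-Cytb*, was at -0.72. What nuclear copies do to the median of the mRNAs was not tested. Of the 19 mtDNA tRNA genes beyond the cluster, 15 were tested, and 6 were lower and 2 higher, with a median of -0.98. The 2 higher were *mt-Tp* of the minus strand (3.70) and *mt-Tt* of the plus strand (5.75). Like *mt-Tv*, *mt-Tt* was nearly undetected in Ctrl, with means of 0.0490 CPM in Ctrl and 2.91 CPM in hMut.

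**Figure D2:**
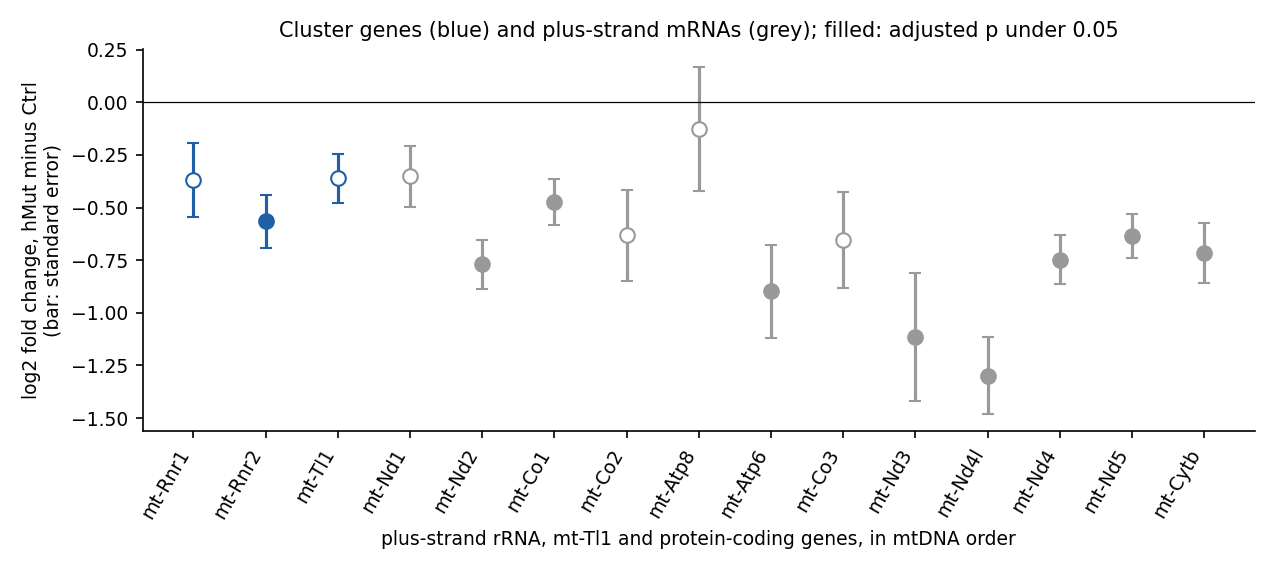
Log2 fold change, hMut minus Ctrl (vertical axis), of the tested rRNA genes, mt-Tl1 and the 12 mRNAs of the plus strand in mtDNA order (horizontal axis), blue for cluster genes and grey for mRNAs; bars are standard errors and filled points passed an adjusted p of 0.05. mt-Rnr2 is the filled blue point at -0.57, and the mRNAs reach from -0.13 to -1.30.

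Whether the cluster changed by another amount than its neighbours was tested with ratios of raw counts within each heart, which do not depend on the scaling of the libraries. Of 8 ratios chosen, 7 were computed. That of *mt-Tf* was left out because the gene had 1 count in hMut and 0 in Ctrl. Each was compared with a 2-sided exact permutation test over the 24310 assignments, with Benjamini-Hochberg adjustment over the 7. For *mt-Rnr2* over the summed plus-strand mRNAs the log2 ratio was -5.48 ± 0.21 in Ctrl (SD, n = 8) and -5.45 ± 0.16 in hMut (SD, n = 9), a difference of 0.03 (exact permutation p = 0.746, adjusted p = 0.870). For *mt-Rnr1* over the same mRNAs the log2 ratio was -7.53 ± 0.28 in Ctrl and -7.31 ± 0.25 in hMut (difference 0.21, exact permutation p = 0.116, adjusted p = 0.203), and 8 of 9 hMut hearts were above the Ctrl median. Against the mean log2 count of the mRNAs, which gives each mRNA the same weight, the differences were larger, 0.38 for *mt-Rnr1* (exact permutation p = 0.0247, adjusted p = 0.0576) and 0.20 for *mt-Rnr2* (exact permutation, adjusted p = 0.219). None of these differences passed the threshold after adjustment, and their size depended on how the mRNAs were summarised. With only *mt-Nd1* and *mt-Cytb*, the mRNAs without a near-identical nuclear copy, as reference, the differences were 0.05 for *mt-Rnr2* (exact permutation, adjusted p = 0.905) and 0.23 for *mt-Rnr1* (exact permutation, adjusted p = 0.166).

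The small- to large-subunit rRNA ratio had a larger SD among hMut than among Ctrl hearts, and this difference in spread was not tested. As a log2 ratio of *mt-Rnr1* to *mt-Rnr2* it was -2.05 ± 0.13 in Ctrl (SD, n = 8), from -2.23 (Ctrl 5) to -1.83 (Ctrl 3). In hMut it was -1.86 ± 0.26 (SD, n = 9), from -2.40 (hMut 6) to -1.63 (hMut 4). Among the 9 hMut hearts, 5 exceeded all Ctrl hearts and 1, hMut 6, was below all of them. The difference of 0.18 did not pass (exact permutation p = 0.0951, adjusted p = 0.203). Without hMut 6 it was 0.25 and passed (exact permutation, adjusted p = 0.0166), without hMut 6 and hMut 9 it was 0.24 (exact permutation, adjusted p = 0.0326), and as a difference of group medians over all hearts it was 0.34 (exact permutation, adjusted p = 0.0403). The call therefore rested on whether hMut 6 was included and on how the groups were summarised. The plot of one rRNA against the other shows hMut 6 with the lowest *mt-Rnr1* level of all hearts at an *mt-Rnr2* level near that of the other hMut hearts.

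**Figure D3:**
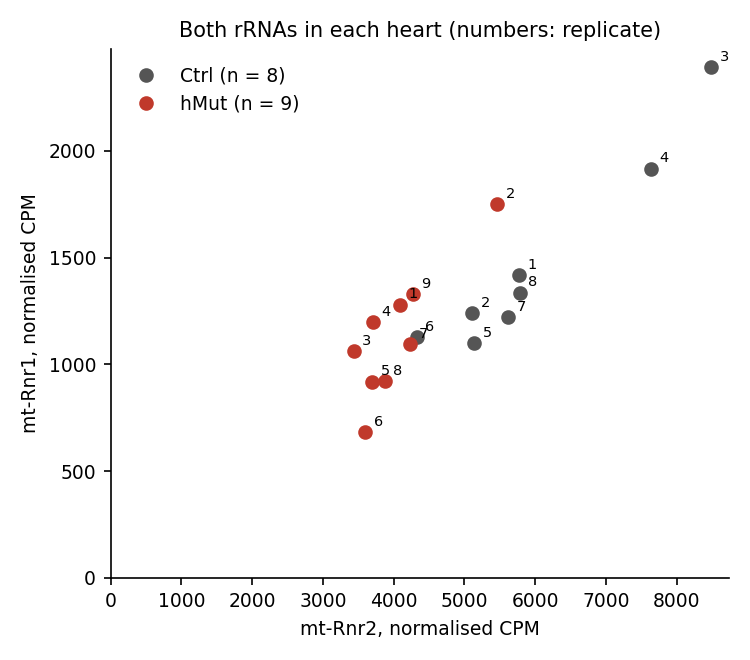
Normalised CPM of mt-Rnr2 (horizontal axis) and mt-Rnr1 (vertical axis) in each heart, both axes linear from 0, grey for Ctrl (n = 8) and red for hMut (n = 9), numbered by replicate. hMut 6 has 682 CPM of mt-Rnr1 at 3597 CPM of mt-Rnr2, and Ctrl 3 and Ctrl 4 are highest in both.

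*mt-Tl1* held a larger share relative to the rRNA before it in hMut hearts. The log2 ratio of *mt-Tl1* to *mt-Rnr2* was -6.48 ± 0.10 in Ctrl (SD, n = 8), from -6.63 (Ctrl 3) to -6.32 (Ctrl 7). In hMut it was -6.29 ± 0.15 (SD, n = 9), from -6.54 (hMut 3) to -5.97 (hMut 6). In hMut, 8 of 9 hearts were above the Ctrl median and 6 exceeded all Ctrl hearts. The difference of 0.20 is a ratio 1.15 times as high (exact permutation p = 0.00514, adjusted p = 0.0180), and it passed with each library left out in turn and without hMut 6 and hMut 9 together (0.14, exact permutation, adjusted p = 0.0326). Relative to *mt-Nd1*, the mRNA that follows it, *mt-Tl1* did not differ beyond the spread: -8.61 ± 0.19 in Ctrl and -8.58 ± 0.46 in hMut, a difference of 0.03 (exact permutation p = 0.905, adjusted p = 0.905). *mt-Tl1* has 75 bases, with 0 bases between it and either neighbour. How a read that spans it and a neighbour was counted is not given in the sources used here.

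*mt-Rnr2* relative to *mt-Nd1* depended on a single heart. The log2 ratio was -2.13 ± 0.21 in Ctrl (SD, n = 8) and -2.29 ± 0.33 in hMut (SD, n = 9), and the difference of -0.16 did not pass (exact permutation p = 0.260, adjusted p = 0.364). In hMut 6 the ratio was -1.47, above every Ctrl heart, where the next hMut heart was at -2.25. Without hMut 6 the difference was -0.27 (exact permutation, adjusted p = 0.0166), and without hMut 6 and hMut 9 it was -0.27 (exact permutation, adjusted p = 0.0326). The *mt-Nd1* level itself was 9989 CPM in hMut 6 and at least 17631 CPM in the other hMut hearts.

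*mt-Tv* rose relative to the rRNAs on its sides. The log2 ratio of *mt-Tv* to the summed rRNA counts was -16.84 ± 1.27 in Ctrl (SD, n = 8) and -14.51 ± 1.04 in hMut (SD, n = 9), a difference of 2.34 (exact permutation p = 0.000905, adjusted p = 0.00633). All 9 hMut hearts were above the Ctrl median and 6 above every Ctrl heart, and the difference passed with each library left out in turn. With 0.5 added to counts between 0 and 19, the size of this difference depends on few reads, while its direction rests on 87 counts against 20.

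**Figure D4:**
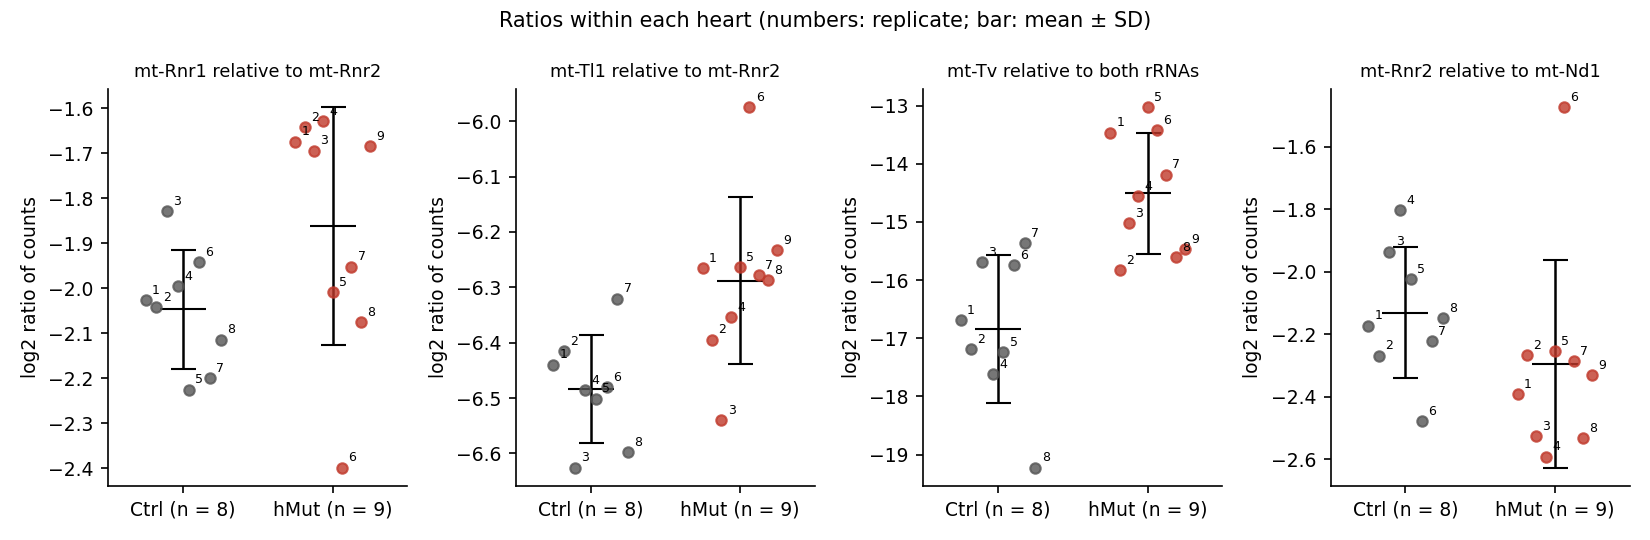
Log2 ratio of raw counts within each heart (vertical axes) for 4 pairs of transcripts, a point per heart numbered by replicate, grey for Ctrl (n = 8) and red for hMut (n = 9), with the mean ± SD in black. mt-Tl1 over mt-Rnr2 and mt-Tv over both rRNAs are higher in hMut, and hMut 6 is the extreme hMut heart in the ratios mt-Rnr1 to mt-Rnr2, mt-Tl1 to mt-Rnr2 and mt-Rnr2 to mt-Nd1.

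Because tails decide what poly-T beads hold, RNAs taken to lack a poly(A) tail were listed beside the cluster. Of 17 such genes listed, 5 had enough counts to be tested and 0 passed. Their median log2 fold change of 0.22 was the value of *H1f2*, a histone gene at 90.2 ± 8.94 CPM in Ctrl (SD, n = 8). Whether the transcripts of each listed gene lack a tail in these hearts was not tested. The most abundant was *Rn18s-rs5*, a gene of nuclear 18S rRNA, which ranged from 738 through a median of 1171 to 4327 CPM in Ctrl and from 1440 through a median of 2070 to 9454 CPM in hMut (log2 fold change 1.07, edgeR adjusted p = 0.149). Its highest level was in hMut 3, the heart with the lowest *mt-Rnr2* and *mt-Tl1*. Among Ctrl hearts it was highest in Ctrl 1, where *mt-Rnr2* was at 5768 CPM, above the Ctrl median of 5693 CPM. The part of RNA carried over without a tail in the *mt-Rnr1*, *mt-Rnr2*, *mt-Tl1* and *mt-Tv* results was not tested.

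The levels of the 3 members tested were compared with each other over the 17 hearts. As a description, Pearson's r of log2 CPM was 0.84 between *mt-Rnr1* and *mt-Rnr2* (0.95 within Ctrl, 0.77 within hMut), 0.91 between *mt-Rnr2* and *mt-Tl1* (0.95 and 0.77), and 0.69 between *mt-Rnr1* and *mt-Tl1* (0.88 and 0.29). The genes outside the cluster with the pattern most like *mt-Rnr2* were *mt-Co1* (r = 0.91), *mt-Ty* (0.91), *Gm29216* (0.89), *mt-Tc* (0.88) and *mt-Nd4* (0.88), of which 4 are mtDNA genes. In the same order, r was 0.84, 0.94, 0.88, 0.83 and 0.80 within Ctrl. Within hMut it was 0.80, 0.43, 0.85, 0.86 and 0.74, so the likeness of *mt-Ty* was weak there. For *mt-Rnr1* they were *Gm29216* (0.91), *Cav2* (0.89), *Sypl* (0.88), *Tmem126a* (0.88) and *Cd164* (0.88), none of them encoded by mtDNA. *Gm29216* is a pseudogene on chromosome 1 (24654787 to 24655278, minus strand), beside the nuclear copy of *mt-Co2* at 24653963 to 24654646, so its counts may hold reads of mtDNA. All of these hearts share the difference between the groups and the scaling of the libraries, and the correlations carry no test.

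The nuclear genes that make, cut, modify and use these RNAs moved little, and only 3 of them passed the test. None of the genes of mtDNA transcription and termination passed (0 of 11, median log2 fold change -0.08), among them *Polrmt*, the mitochondrial RNA polymerase (-0.09), *Tfam*, which packages mtDNA and starts transcription (-0.08), and *Mterf1a* (-0.04). Of the tRNA processing genes 0 of 6 passed (median -0.01), with *Elac2* at 0.13 (edgeR adjusted p = 0.108). For rRNA modification the count was 0 of 10 (median -0.07), for mitoribosome assembly 0 of 22 (median -0.04), for the synthetases that charge the 3 tRNAs 0 of 3 (median -0.16), for the small-subunit proteins 0 of 29 (median -0.04) and for the large-subunit proteins 0 of 48 (median -0.05). The medians of these 7 lists lie between -0.16 and -0.01, against -0.37 for the 3 cluster members tested. The part of these nuclear genes in the cluster's results was not tested.

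The exceptions were in tRNA modification and RNA decay. *Pus1*, which makes pseudouridine in tRNAs, rose from 14.3 ± 1.09 CPM in Ctrl (SD, n = 8) to 17.3 ± 1.62 CPM in hMut (SD, n = 9), a log2 fold change of 0.28 (edgeR adjusted p = 0.0170). *Qtrt1*, a subunit of the enzyme that places queuosine in tRNAs, rose by 0.31 (adjusted p = 0.0404, edgeR); 2 of 16 tRNA modification genes were higher and 0 lower. *Rexo2*, an oligoribonuclease that removes short RNA fragments in mitochondria, rose from 41.5 ± 1.60 to 49.1 ± 5.21 CPM (log2 fold change 0.24, adjusted p = 0.0210, edgeR), the only gene past the test among 12 of RNA stability and decay. *Lrpprc*, which binds and stabilises mitochondrial mRNAs, was at -0.21 (adjusted p = 0.134, edgeR). Against the 3.48% of all genes called higher, 2 of 16 and 1 of 12 are small counts from which nothing particular to these lists is read.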

How the data were processed

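RNA-seq libraries of 8 Ctrl and 9 hMut hearts were grouped by the genotype in the sample labels. Per the labels and methods, the authors used fastp for read filtering, HISAT2 (version 2.2.1) for alignment to GRCm39 and featureCounts (version 2.0.6) for counting, and they deposited the raw counts of each gene without normalization. The annotation release and how strand, overlapping genes and multiply aligned reads were treated are not given in the sources used here. The mtDNA genes (37) had the coordinates of GENCODE release 39 for GRCm39, from which sequences were read.

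Counts were normalized by TMM, filtered with filterByExpr and tested in edgeR (version 4.0.16, under R 4.3.3) by its quasi-likelihood method, with Benjamini-Hochberg adjustment over 16195 genes and a threshold of 0.05; standard errors come from the log2 fold change and its F statistic. In the log2 CPM used for correlations the prior count was 2. Ratios of raw counts (0.5 added) were compared by exact permutation, p being the share of assignments with at least the observed absolute difference. Both tests were tested on simulated data. Nuclear copies were searched with blastn (version 2.17.0). Other tools were DESeq2 (version 1.42.0, which the authors also used), limma (version 3.58.1), Python 3.11.15, numpy 2.4.6, pandas 2.3.3, scipy 1.17.1 and matplotlib 3.10.9.

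The members, the gene lists and the tests were chosen with earlier results of these data known. All members are named, with the 5 genes most like *mt-Rnr1* and *mt-Rnr2*, *mt-Nd1*, the range of the plus-strand mRNAs, *Polg*, and list members past the threshold (up to 4 of each list). *Polrmt*, *Tfam*, *Mterf1a*, *Elac2*, *Lrpprc*, *H1f2*, *mt-Cytb* and *Rn18s-rs5* are named beyond this rule, with their values already known. The same holds for *mt-Tp*, *mt-Tt*, *Pecam1*, *Cdh5*, *Tek*, *Ckm* and *Mb*. Alternatives were other normalizations and filters, TMM on nuclear genes, sex read from the counts as a covariate (3 Ctrl and 2 hMut females), the replicate number as a block, DESeq2, limma-voom, leaving out every library once and, for ratios, another pseudocount, medians and another mRNA reference. Leaving out hMut 6 and hMut 9 together, mRNAs without a nuclear copy as reference and the permutation test of *mt-Tv* were chosen after seeing the data. Floors cover counting error only, and p-values set the difference between groups against the spread between mice.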

Additional observations from a re-analysis of the deposited data

Results flagged for a closer look

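In 22 groups of values (4 levels and 7 ratios, in Ctrl and in hMut), 3 had a heart separated from the rest by a gap that was a large part of the group's range (Dixon's criterion at 95%); about 5% of groups would show one by chance. *mt-Rnr2* was at 5461 CPM in hMut 2, with the next hMut heart at 4275 CPM. The log2 ratio of *mt-Rnr2* to *mt-Nd1* was -1.47 in hMut 6, with the next at -2.25. The log2 ratio of *mt-Tl1* to *mt-Nd1* was -7.45 in hMut 6, with the next at -8.52. The last pair of results share the low *mt-Nd1* count of hMut 6 and are not independent.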

How the results depend on the processing

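The count of 749 genes was 463 with no filter on low counts, 195 with the replicate block, 1517 with DESeq2, 2081 with limma-voom, 431 without hMut 6 and hMut 9, and between 395 (without hMut 5) and 1792 (without hMut 2) with 1 library left out. *mt-Rnr2* stayed past the threshold except with the replicate block (-0.56, adjusted p = 0.0848, edgeR). Same-numbered hearts deviated together in 1 of 8 pairs (correlations from -0.23 to 0.34) and 1 of 8 matched its own number best. The labels name no pairs, and these correlations alone cannot show that there are none. With 1 library left out, *mt-Rnr2* lay between -0.63 and -0.48, *mt-Rnr1* between -0.47 and -0.23, never past the threshold, and *mt-Tl1* between -0.42 and -0.30. *mt-Tl1* passed with DESeq2 (-0.36), limma-voom (-0.39) and without hMut 2. For *mt-Tv*, the log2 ratio of mean CPM was 1.83, with an exact permutation p under the threshold that was not adjusted and so cannot be set against the adjusted p of edgeR.

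Among the ratios, with 1 library left out, *mt-Rnr1* over *mt-Rnr2* lay between 0.16 and 0.25, passing only without hMut 6, without hMut 6 and hMut 9 (0.24) and as medians (0.34). *mt-Rnr2* over *mt-Nd1* lay between -0.27 and -0.12, passing without hMut 6 and without hMut 6 and hMut 9 (-0.27). *mt-Rnr1* over the mRNAs lay between 0.18 and 0.28 and was 0.38 against the mean log2 count of the mRNAs, where *mt-Rnr2* was 0.20, *mt-Tl1* over *mt-Rnr2* between 0.16 and 0.23 and *mt-Tv* over both rRNAs between 1.996 and 2.55. Differences near 0 changed sign: *mt-Rnr2* over the mRNAs was between -0.013 (without Ctrl 6) and 0.079, -0.0056 without hMut 6 and -0.030 without hMut 6 and hMut 9, and *mt-Tl1* over *mt-Nd1* was between -0.11 (without hMut 6) and 0.093, -0.016 without Ctrl 6, -0.13 without hMut 6 and hMut 9 and -0.070 as medians. In the fits not named, directions and calls of the members held; the cause of each change was not tested. Depth limits *mt-Tv* and *mt-Tf* only.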
